A study of Mus musculus with 6 samples.

Results

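The 10 genes described here carry cells through G1 and were measured in 4T1 cells made null for *Uba6*. They are the D-type cyclins *Ccnd1*, *Ccnd2* and *Ccnd3*, the E-type cyclins *Ccne1* and *Ccne2*, the kinases *Cdk4*, *Cdk6* and *Cdk2*, the inhibitor *Cdkn1b* and the retinoblastoma gene *Rb1*. The genes were chosen by name for their roles, with earlier results of these data known. All 10 were among the 19255 genes of the deposited expression table. RNA-seq of 6 libraries was used, 3 from cells labelled as UBA6 knockout (sg*Uba6*) and 3 from cells labelled wild type and titled NTC, the study's sgCtrl control. The 4T1 line is a mouse mammary carcinoma, and the 6 libraries shared the line, the medium and the RNA extraction. The sg*Uba6* cells came from Cas9-expressing 4T1 cells given guide RNAs by lentivirus and kept under puromycin, how the sgCtrl cells were made was not given in the sources used here, and the treatment text in the labels names the UBA6 guide and the Cas9 vector for every sample, controls included. Whether the sg*Uba6* cells were a clone or a pool, and whether the libraries of a group came from separate cultures, was not stated either. Spread between libraries may therefore be technical, and the p-values cover that spread alone.

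Passage through G1 depends on a short chain of proteins. Mitogens raise D-type cyclins, which bind CDK4 and CDK6 and begin to phosphorylate RB. RB then releases E2F transcription factors, cyclin E is made, and cyclin E with CDK2 completes RB phosphorylation and starts S phase. p27, the product of *Cdkn1b*, holds cyclin E-CDK2 in check and also helps D-type cyclins assemble with their kinases. Cyclins D and E and p27 are short-lived proteins removed by ubiquitin ligases, and *Uba6* codes for an activating enzyme at the head of ubiquitin and FAT10 conjugation. Only mRNA was measured here.

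*Uba6* mRNA itself was at 10.9, 12.1 and 12.0 FPKM (fragments scaled by exon length and library size) in the sg*Uba6* libraries, against 16.4, 16.4 and 17.0 FPKM in the sgCtrl libraries, with a log2 fold change of -0.49 (SE 0.06, limma, adjusted p = 0.000601). This value checks the labels only, because mRNA of an edited gene may still be made. Protein was not part of these data, and the paper examined UBA6 protein in sgCtrl and sg*Uba6* 4T1 cells by western blot. Summed FPKM lay between 352535 and 355425 in sg*Uba6* libraries and between 358916 and 362762 in sgCtrl libraries. Read totals were not given with the FPKM, so the depth is unknown and no counting interval is given. Epithelial markers identified the line, with 9 of 9 expressed and a summed level of 2680 to 2739 FPKM in sg*Uba6* and 2636 to 2703 FPKM in sgCtrl cells, of which 3 were higher, 2 lower and 4 not passed. Of 8 leukocyte markers written, 3 had values. *Ptprc* stayed at or under 0.0195 FPKM and *Ly6g* at or under 0.0944 FPKM. *Cd14* averaged 14.2 FPKM in sg*Uba6* and 11.2 FPKM in sgCtrl cells and rose (log2 fold change 0.32). Fibroblast markers summed to 5.40 to 6.70 FPKM in sg*Uba6* and 2.96 to 3.19 FPKM in sgCtrl libraries, with *Pdgfra* and *Col1a1* higher, *Col1a2* at 0.0427 FPKM in sg*Uba6* and 0.0912 FPKM in sgCtrl cells and not tested, and *Dcn* at or under 0.0317 FPKM. The only endothelial marker with values, *Pecam1*, was at or under 0.214 FPKM. The part of these marker differences in the results below was not tested.

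All 10 genes passed the filter of at least 0.5 FPKM in at least 3 libraries. In the sg*Uba6* cells, *Ccnd2* and *Ccne1* rose, *Ccnd1*, *Ccne2*, *Cdk4* and *Rb1* fell, and *Ccnd3*, *Cdk6*, *Cdk2* and *Cdkn1b* did not pass the test (limma on log2(FPKM + 0.5), adjusted over 12190 genes, threshold 0.05). Thus 6 of 10 were called, where 47.4% of all tested genes were called. By direction, 2 were higher, against 24.7% of all tested genes, and 4 were lower, against 22.7%. The groups did not overlap for 6 of the genes, where 57.6% of all tested genes had groups that did not overlap. With only 10 genes, these counts are not read as a departure from the whole table. None differed by 2-fold or more. The median log2 fold change of the 10 genes was -0.01, beside 0.01 over all tested genes, and the median size of the change was 0.26, beside 0.23 over all tested genes and 0.41 over the called genes. Fold changes on this scale understate the change of weakly expressed genes, and a lower value in bulk RNA can come from fewer cells that express a gene or from less RNA per cell, which cannot be told apart.

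**Figure D1:**
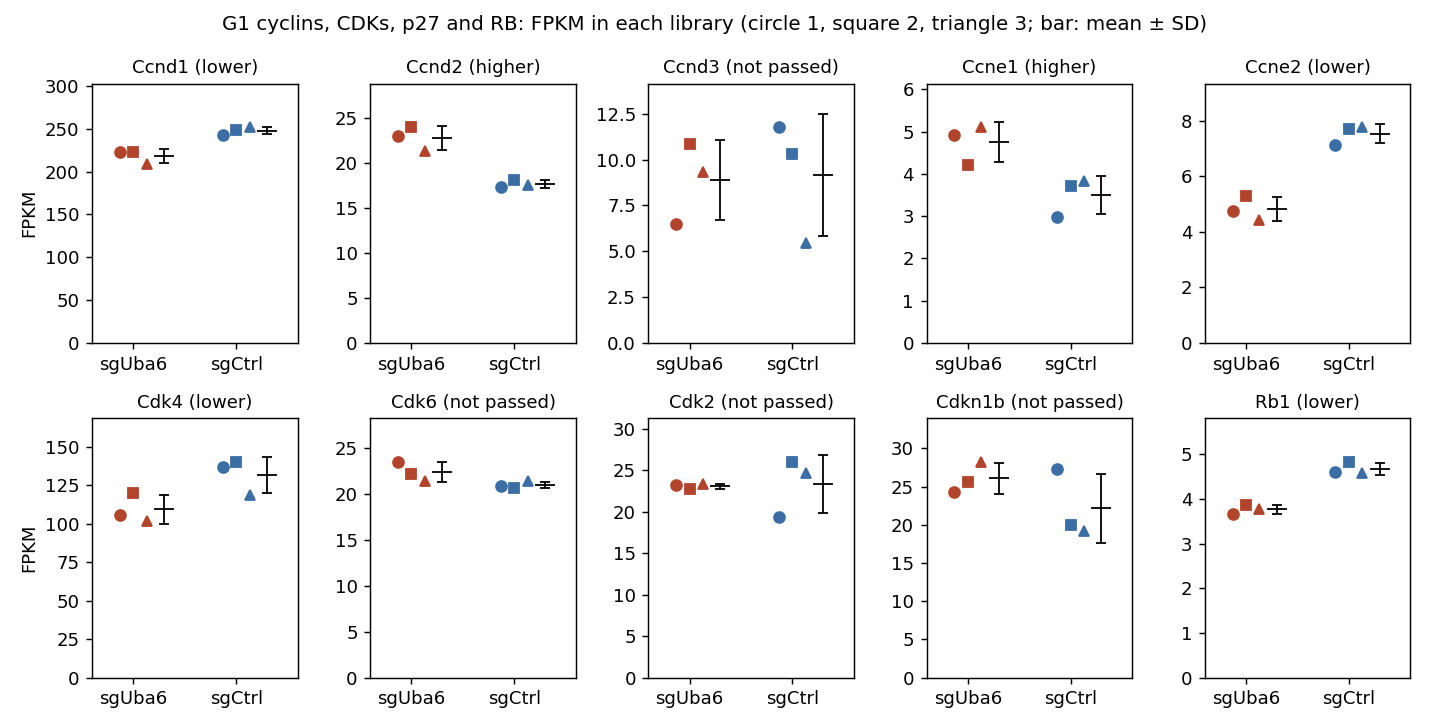
FPKM of each of the 10 genes (vertical axes, from 0) in the 3 sgUba6 libraries (red) and the 3 sgCtrl libraries (blue), with the mean and SD as a bar beside the points and the limma call above each panel. The groups stand apart for Ccnd1, Ccnd2, Ccne1, Ccne2, Rb1 and, narrowly, Cdk6, and overlap for Ccnd3, Cdk4, Cdk2 and Cdkn1b.

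Of the 3 D-type cyclins, *Ccnd1* fell, *Ccnd2* rose and *Ccnd3* did not pass the test. *Ccnd1* (ENSMUSG00000070348, GRCm38 chromosome 7 from 144929931 to 144939925, minus strand), the D-type cyclin most tied to mammary epithelium and mammary cancer, was at 223, 223 and 209 FPKM in sg*Uba6* cells, against 243, 248 and 252 FPKM in sgCtrl cells. Every sg*Uba6* library lay below every sgCtrl library. The mean of 218 ± 7.87 FPKM in sg*Uba6* cells was 12.0% under the 248 ± 4.56 FPKM of sgCtrl cells (SD, n = 3 each), a log2 fold change of -0.18 (SE 0.04, limma, adjusted p = 0.00645). *Ccnd1* was the most abundant of the 10 genes and ranked 175 of 12190 by mean level. An opposite-strand gene, *LTO1*, shares 1100 exon bases with it, 23.4% of the exon length of *Ccnd1*, and was at 7.78 FPKM in sg*Uba6* and 8.03 FPKM in sgCtrl cells without passing the test (log2 fold change -0.05, limma, adjusted p = 0.626). If strand was not used in counting, reads from such shared bases cannot be told apart.

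*Ccnd2* (ENSMUSG00000000184, chromosome 6 from 127125162 to 127152193, minus strand), another D-type cyclin that serves the same kinases, was at 23.0, 24.0 and 21.3 FPKM in sg*Uba6* cells, against 17.3, 18.1 and 17.6 FPKM in sgCtrl cells. The sg*Uba6* libraries all lay above the sgCtrl libraries, which were close to each other. The difference was 28.8% of the sgCtrl mean, a log2 fold change of 0.35 (SE 0.06, limma, adjusted p = 0.00217). *Ccnd1* remained the larger part of the total, and the D-type cyclins together were at 252, 258 and 239.8 FPKM in sg*Uba6* cells, against 272, 277 and 275 FPKM in sgCtrl cells. These sums did not overlap (exact two-sided permutation test, p = 0.1, the smallest that 3 against 3 libraries can give).

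*Ccnd3* (ENSMUSG00000034165, chromosome 17 from 47505051 to 47599691, plus strand), the D-type cyclin best known from blood cells, was at 6.51, 10.8 and 9.33 FPKM in sg*Uba6* cells, against 11.8, 10.3 and 5.44 FPKM in sgCtrl cells. The libraries of both groups were scattered over the same range. The highest value was 1.67 times the lowest in sg*Uba6* and 2.17 times the lowest in sgCtrl cells, the widest spread of the 10 genes in either group. The log2 fold change was -0.00 with a 95% interval from -0.71 to 0.70 (limma, adjusted p = 0.992), so a rise or a fall of the size seen in the other cyclins was not detectable. *Ccnd3* has 21 annotated transcripts, the most of the 10 genes, and a processed pseudogene, *Ccnd3-ps*, matches it over 881 bases at 96.3% identity but was at or under 0.0665 FPKM in every library. *Bysl*, on the opposite strand, shares 361 exon bases with *Ccnd3* (4.11% of its exon length). *Bysl* fell, at 7.84 FPKM in sg*Uba6* and 9.82 FPKM in sgCtrl cells (log2 fold change -0.31, limma, adjusted p = 0.0167). The part of reads from *Bysl* in the *Ccnd3* values was not tested.

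The make-up of D-type cyclin mRNA was compared within each library. The share of *Ccnd1* in the summed D-type cyclin FPKM was 88.3%, 86.5% and 87.2% in sg*Uba6* libraries, against 89.3%, 89.7% and 91.6% in sgCtrl libraries. *Ccnd2* made up 9.12%, 9.31% and 8.89% of it in sg*Uba6* libraries, against 6.37%, 6.55% and 6.38% in sgCtrl libraries, a difference of 2.67 percentage points. A share within a library does not depend on the scaling between libraries, and for these 2 genes the groups did not overlap. The exact two-sided permutation test gave p = 0.1 for each, the smallest possible, and 0.16 after Benjamini-Hochberg adjustment over the 8 shares and ratios compared. For *Ccnd3* the mean share was 3.56 ± 0.861% in sg*Uba6* and 3.34 ± 1.22% in sgCtrl cells (SD, n = 3 each, exact permutation p = 0.7), and the direction of this difference turned without sg*Uba6* 2 (-0.107 percentage points) and without sgCtrl 3 (-0.467 percentage points).

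Of the E-type cyclins, *Ccne1* rose and *Ccne2* fell. With all 6 libraries these were the largest changes of the 10 genes, but under quantile normalization (*Ccne1* 0.30, *Ccnd2* 0.38) and without sgCtrl 1 (0.30 and 0.34) or sg*Uba6* 3 (0.34 and 0.40) *Ccne1* lay under *Ccnd2*. *Ccne1* (ENSMUSG00000002068, chromosome 7 from 38097984 to 38107534, minus strand), an activating partner of CDK2, was at 4.91, 4.21 and 5.11 FPKM in sg*Uba6* cells, against 2.98, 3.70 and 3.82 FPKM in sgCtrl cells. The groups stood apart by the gap between sg*Uba6* 2 and sgCtrl 3. The log2 fold change was 0.39 (SE 0.11, 95% interval 0.12 to 0.66, limma, adjusted p = 0.0267). The call was lost without sgCtrl 1 (adjusted p = 0.0632), without sg*Uba6* 1 (0.0773), without sg*Uba6* 3 (0.0859) and under quantile normalization (0.0651), with a log2 fold change between 0.30 and 0.47 over the 14 alternatives.

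*Ccne2* (ENSMUSG00000028212, chromosome 4 from 11191351 to 11204779, plus strand), whose protein binds CDK2 as cyclin E1 does, was at 4.75, 5.29 and 4.41 FPKM in sg*Uba6* cells, against 7.14, 7.70 and 7.78 FPKM in sgCtrl cells. The highest sg*Uba6* library lay well under the lowest sgCtrl library. The fall was 36.1% of the sgCtrl mean, a log2 fold change of -0.60 (SE 0.08, limma, adjusted p = 0.00110), and the call held under all 14 alternatives, with log2 fold changes between -0.66 and -0.54. *Ints8*, on the opposite strand, shares 609 exon bases with *Ccne2* (17.4% of its exon length) and was at 25.2 FPKM in sg*Uba6* and 23.2 FPKM in sgCtrl cells, not passing the test (log2 fold change 0.12, limma, adjusted p = 0.177).

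The make-up of cyclin E mRNA differed accordingly. *Ccne1* supplied 50.9%, 44.3% and 53.7% of the summed E-type cyclin FPKM in sg*Uba6* libraries, against 29.5%, 32.5% and 32.9% in sgCtrl libraries. The 2 genes were thus near parity in sg*Uba6* cells, while *Ccne2* was ahead in every sgCtrl library. The part of reads from *Ints8* in the *Ccne2* values, and so in this share, was not tested. The mean share of *Ccne1* was 49.6 ± 4.79% in sg*Uba6* and 31.6 ± 1.89% in sgCtrl cells (SD, n = 3 each), a difference of 18.0 percentage points (exact permutation p = 0.1, adjusted 0.16). The sum of both was at 9.66, 9.50 and 9.53 FPKM in sg*Uba6* cells, against 10.1, 11.4 and 11.6 FPKM in sgCtrl cells, without overlap.

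**Figure D2:**
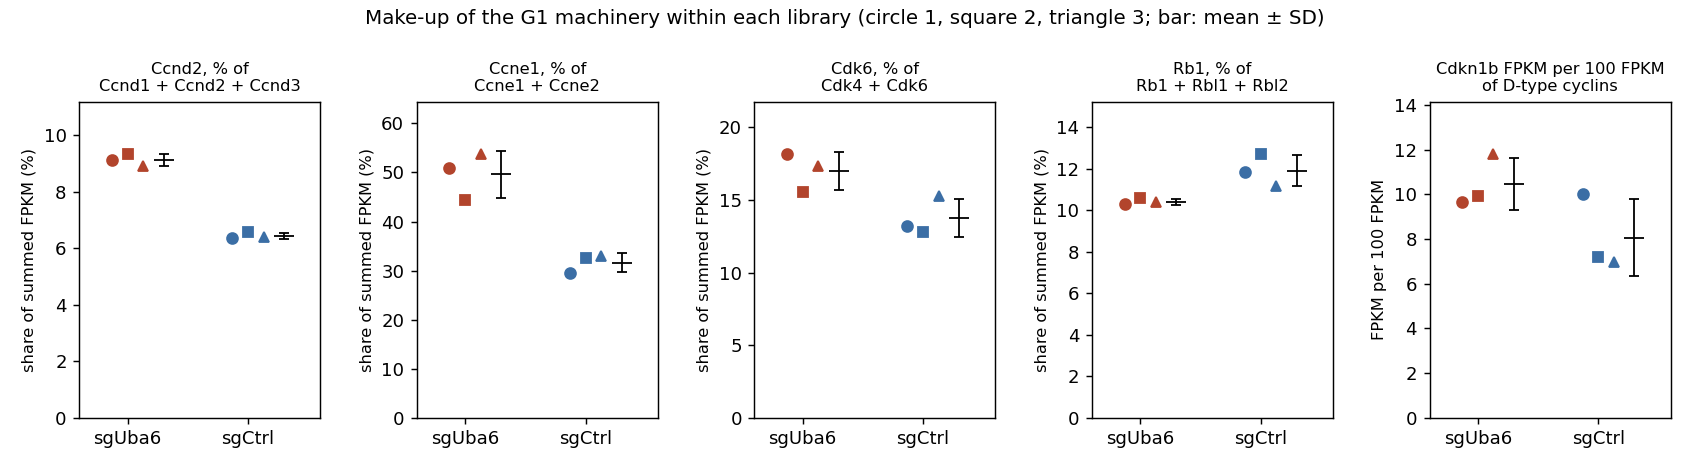
Make-up of the G1 machinery within each library, as the share of Ccnd2, Ccne1, Cdk6 and Rb1 in the summed FPKM of their families (percent) and as Cdkn1b FPKM per 100 FPKM of D-type cyclins, for sgUba6 (red) and sgCtrl (blue) libraries with mean and SD. The Ccne1 share averaged 49.6% in sgUba6 and 31.6% in sgCtrl cells, and of these 5 measures only the Cdkn1b ratio overlapped between the groups. Of the measures not drawn, the Ccnd3 share and the ratio of Cdkn1b to Cdk2, Ccne1 and Ccne2 overlapped too, and the Ccnd1 share did not.

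Among the kinases, only *Cdk4* was called. *Cdk4* (ENSMUSG00000006728, chromosome 10 from 127063534 to 127067920, plus strand), the kinase through which D-type cyclins phosphorylate RB, was at 106, 120.3 and 102 FPKM in sg*Uba6* cells, against 137, 141 and 119 FPKM in sgCtrl cells. The groups overlapped, since sg*Uba6* 2 lay above sgCtrl 3. The log2 fold change was -0.27 (SE 0.08, 95% interval -0.47 to -0.07, limma, adjusted p = 0.0369). This call was lost under 7 of 14 alternatives, among them leaving out sgCtrl 1 (adjusted p = 0.102), sgCtrl 2 (0.105), sg*Uba6* 1 (0.102) or sg*Uba6* 3 (0.111), although the value stayed negative in each, and over the 14 alternatives its adjusted p ran between 0.0120 and 0.111. *Tspan31*, on the opposite strand, shares 641 exon bases with *Cdk4* (19.7% of its exon length) and did not pass the test, at 46.4 FPKM in sg*Uba6* and 48.4 FPKM in sgCtrl cells.

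*Cdk6* (ENSMUSG00000040274, chromosome 5 from 3341485 to 3531008, plus strand), the other kinase of D-type cyclins, was at 23.5, 22.1 and 21.4 FPKM in sg*Uba6* cells, against 20.8, 20.6 and 21.3 FPKM in sgCtrl cells. The groups touched without overlapping. The log2 fold change of 0.09 (95% interval -0.03 to 0.21) did not pass the test (limma, adjusted p = 0.179). *Cdk6* accounted for 18.1%, 15.5% and 17.3% of the summed *Cdk4* and *Cdk6* FPKM in sg*Uba6* libraries, against 13.2%, 12.8% and 15.3% in sgCtrl libraries. *Cdk4* was thus the predominant kinase gene of the pair in every library, and the share of *Cdk6* differed by 3.24 percentage points, without overlap (exact permutation p = 0.1, adjusted 0.16).

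*Cdk2* (ENSMUSG00000025358, chromosome 10 from 128697939 to 128705031, minus strand), the partner of cyclin E, was at 23.2, 22.8 and 23.3 FPKM in sg*Uba6* cells, against 19.4, 26.1 and 24.7 FPKM in sgCtrl cells. The sg*Uba6* libraries agreed closely and lay inside the sgCtrl range, whose lowest value was that of sgCtrl 1. The log2 fold change was -0.01 with a 95% interval from -0.26 to 0.24 (limma, adjusted p = 0.968).

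Upstream sequence was examined for the genes with an entry in the RefSeq promoter table (GRCm38.p6, 250 bases before and 50 after each start), which held 6 of the 10 genes in 7 entries, and none for *Ccnd1*, *Ccnd2*, *Ccne2* and *Rb1*. Both strands were searched for the E-box CACGTG, bound by MYC and related factors, the GC box GGGCGG, bound by SP1-type factors, the E2F motif TTTNGCGC, the cyclic AMP response element TGACGTCA, the AP-1 motif TGANTCA, the cell cycle homology region TTTGAA and the CCAAT box CCAAT. Of 32851 promoters in the table, 7.15% held an E-box, 35.7% a GC box, 1.38% the E2F motif, 1.79% the cyclic AMP response element, 7.81% the AP-1 motif, 17.9% the cell cycle homology region and 37.4% a CCAAT box. *Cdk4*, which fell, and *Ccne1*, which rose, are printed because they were the called genes with an entry and their windows differ in these motifs. The stretches run from 5′ to 3′ on the strand of the gene and end before or at the first annotated exon base, with E-boxes in capitals for *Cdk4* (chr10:127063353-127063533, plus strand) and GC boxes of either orientation in capitals for *Ccne1* (chr7:38107534-38107736, minus strand).
Cdk4: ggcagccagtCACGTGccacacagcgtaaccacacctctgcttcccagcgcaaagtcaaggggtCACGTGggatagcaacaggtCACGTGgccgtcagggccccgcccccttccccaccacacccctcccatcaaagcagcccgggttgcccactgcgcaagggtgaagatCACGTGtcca
Ccne1: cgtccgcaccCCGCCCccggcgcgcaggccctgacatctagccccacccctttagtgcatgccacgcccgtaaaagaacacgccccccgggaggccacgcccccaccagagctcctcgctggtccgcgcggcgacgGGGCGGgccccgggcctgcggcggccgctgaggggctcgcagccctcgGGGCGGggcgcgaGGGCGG
*Cdk4* held 4 E-boxes, a number reached by 0.0244% of all promoters in the table, and *Ccne1* held 4 GC boxes and no E-box, with 5.49% of promoters reaching that number of GC boxes. GC boxes were not limited to the gene that rose, since *Cdk4* held 3 (10.7% of promoters held as many or more) and *Cdk2*, which did not pass the test, held 6 (1.35%). The *Cdk6* window had 1 E-box, those of *Ccnd3*, *Cdk2* and *Cdkn1b* had none, and *Cdkn1b* had 3 CCAAT boxes, as 3.37% of promoters did or more. The letters of the E2F motif, the cyclic AMP response element, the AP-1 motif and the cell cycle homology region were in none of the 7 windows. A match to these letters is a description and not a binding site.

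*Cdkn1b* (ENSMUSG00000003031, chromosome 6 from 134920401 to 134925513, plus strand), which encodes p27, was at 24.3, 25.6 and 28.3 FPKM in sg*Uba6* cells, against 27.3, 19.9 and 19.2 FPKM in sgCtrl cells. The groups overlapped through sgCtrl 1, which lay among the sg*Uba6* libraries, while sgCtrl 2 and sgCtrl 3 lay below them all. With all 6 libraries the log2 fold change of 0.25 (95% interval -0.08 to 0.57) did not pass the test (limma, adjusted p = 0.179). Without sgCtrl 1 it was 0.40 and passed (limma, adjusted p = 0.00818), so this library decided the call. Set against 100 FPKM of D-type cyclins, *Cdkn1b* was at 9.65, 9.95 and 11.8 FPKM in sg*Uba6* libraries, against 10.0, 7.20 and 6.97 FPKM in sgCtrl libraries (exact permutation p = 0.3). For each FPKM of *Cdk2*, *Ccne1* and *Ccne2* together there were 0.740, 0.794 and 0.860 FPKM of *Cdkn1b* in sg*Uba6* libraries, against 0.926, 0.532 and 0.528 FPKM in sgCtrl libraries (exact permutation p = 0.4). In the ratio to D-type cyclins sgCtrl 1 lay inside the sg*Uba6* range, and in the ratio to *Cdk2* and the E-type cyclins it lay above all sg*Uba6* libraries, while sgCtrl 2 and sgCtrl 3 lay below them in both ratios.

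*Rb1* (ENSMUSG00000022105, chromosome 14 from 73183673 to 73325822, minus strand), whose product restrains E2F factors until CDKs phosphorylate it, was at 3.66, 3.86 and 3.78 FPKM in sg*Uba6* cells, against 4.60, 4.84 and 4.59 FPKM in sgCtrl cells. The libraries of each group were close together and the groups stood apart. The fall was 19.4% of the sgCtrl mean, a log2 fold change of -0.28 (SE 0.07, limma, adjusted p = 0.0118), and the call held under all 14 alternatives. *Rb1* supplied 10.3%, 10.6% and 10.4% of the summed FPKM of the pocket protein genes *Rb1*, *Rbl1* and *Rbl2* in sg*Uba6* libraries, against 11.9%, 12.7% and 11.2% in sgCtrl libraries (exact permutation p = 0.1, adjusted 0.16). *Rbl1* fell too (19.0 FPKM in sg*Uba6* and 23.1 FPKM in sgCtrl cells, log2 fold change -0.27, limma, adjusted p = 0.00300). *Rbl2*, at 13.3 FPKM in sg*Uba6* and 11.6 FPKM in sgCtrl cells, did not pass the test (0.20, limma, adjusted p = 0.0543). Opposite-strand genes share exon bases with *Rb1*: *Lpar6* shares 408 and fell (1.31 FPKM in sg*Uba6* and 1.92 FPKM in sgCtrl cells, log2 fold change -0.42, limma, adjusted p = 0.0192), and *Rcbtb2* shares 488 and did not pass the test (12.1 FPKM in sg*Uba6* and 17.7 FPKM in sgCtrl cells, adjusted p = 0.0661). The part of such reads in the *Rb1* values was not tested.

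**Figure D3:**
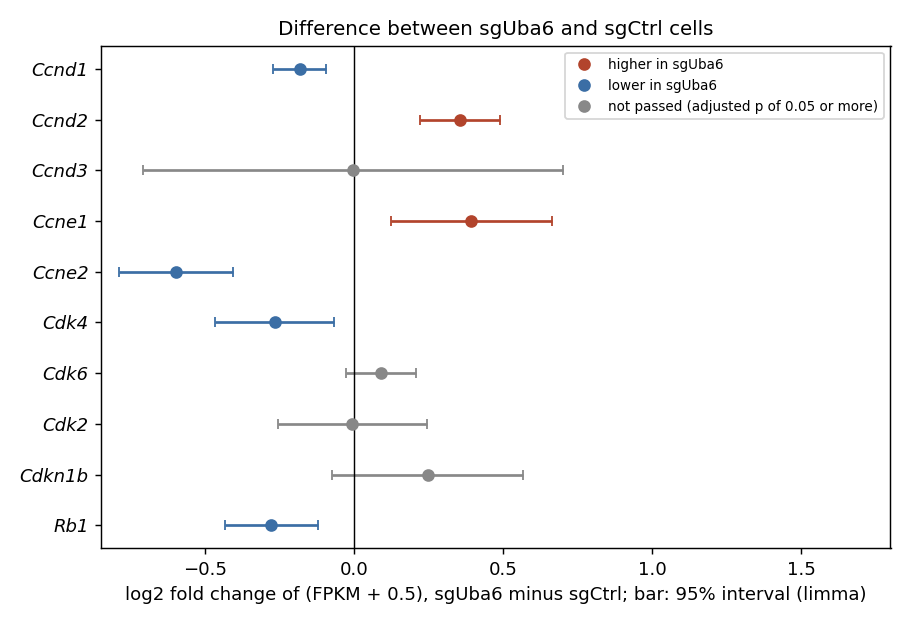
Log2 fold change of (FPKM + 0.5), sgUba6 minus sgCtrl, for each of the 10 genes (points) with its 95% interval from limma (bars). Ccne2 had the lowest value, -0.60, Ccne1 the highest, 0.39, and the interval of Ccnd3 spanned -0.71 to 0.70.

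Levels per length can be ordered within a group. In sg*Uba6* cells the order of mean FPKM ran *Ccnd1*, *Cdk4*, *Cdkn1b*, *Cdk2*, *Ccnd2*, *Cdk6*, *Ccnd3*, *Ccne2*, *Ccne1* and *Rb1*. Among neighbours in this order, the library ranges of *Cdk2* and *Ccnd2*, of *Ccnd2* and *Cdk6* and of *Ccne2* and *Ccne1* overlapped. In sgCtrl cells the order ran *Ccnd1*, *Cdk4*, *Cdk2*, *Cdkn1b*, *Cdk6*, *Ccnd2*, *Ccnd3*, *Ccne2*, *Rb1* and *Ccne1*. Among neighbours there, the ranges of *Cdk2* and *Cdkn1b*, of *Cdkn1b* and *Cdk6* and of *Ccnd3* and *Ccne2* overlapped. *Ccnd1* and *Cdk4* thus headed both orders. *Cdk6* and *Ccnd2* did not overlap in sgCtrl cells but did in sg*Uba6* cells, and *Ccne1* was the lowest of the 10 genes in sgCtrl cells while *Rb1* was the lowest in sg*Uba6* cells. Of the sgCtrl libraries, sgCtrl 1 was the lowest of its group for *Ccnd1*, *Ccnd2*, *Ccne1*, *Ccne2* and *Cdk2* and the highest for *Cdkn1b* and *Ccnd3*.

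The genes whose values followed the most raised and the most lowered of these genes most closely were sought over the 6 libraries by Pearson's r of log2(FPKM + 0.5), as a description. For *Ccne1* these were *Braf* (r = 0.995), a kinase of the mitogen pathway, and the noncoding transcripts *C430049B03Rik* (0.994) and *AV356131* (0.986), and 75 genes exceeded 0.95. *Braf* was at 6.96, 6.40 and 7.35 FPKM in sg*Uba6* cells, against 5.12, 5.78 and 6.08 FPKM in sgCtrl cells. For *Ccne2* they were *Rpap3* (0.999), *Prim2* (0.999), a subunit of DNA primase, and *Rcc2* (0.999), and 1024 genes exceeded 0.95. *Prim2* was at 16.5, 17.6 and 16.0 FPKM in sg*Uba6* cells, against 21.5, 22.4 and 22.7 FPKM in sgCtrl cells. These r share the libraries and the difference between the groups, and any gene that differs between the groups and little within them scores high.

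The genes around the G1 machinery were grouped into lists by role, and the counts of each are to be read against the 24.7% of all tested genes that were higher and the 22.7% that were lower. Other CDK inhibitors had 4 tested members, of which 2 rose, 1 fell and 1 did not pass (75.0% called), with a median log2 fold change of 0.43. *Cdkn1a*, the p53 target p21, was at 7.20, 6.72 and 6.52 FPKM in sg*Uba6* cells, against 2.78, 2.27 and 2.08 FPKM in sgCtrl cells, a log2 fold change of 1.35 (SE 0.10, limma, adjusted p = 9.68e-05). All sg*Uba6* libraries lay far above all sgCtrl libraries, and the difference was larger than that of any of the 10 G1 genes. *Cdkn2c*, an inhibitor of CDK4 and CDK6, averaged 72.0 FPKM in sg*Uba6* and 56.5 FPKM in sgCtrl cells (log2 fold change 0.35), and *Cdkn3*, a phosphatase acting on CDK2, averaged 13.2 FPKM in sg*Uba6* and 18.0 FPKM in sgCtrl cells (-0.45). Of 7 genes written for this list 5 had values, and *Cdkn1c*, at 0.0797 FPKM in sg*Uba6* and 0 FPKM in sgCtrl cells, was not tested. *Cdkn2a* and *Cdkn2b* were not analysed here.

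Of the 12 other pocket protein, E2F and DP genes, 1 rose, 7 fell and 4 did not pass (66.7% called), with a median of -0.24. *E2f5* averaged 6.95 FPKM in sg*Uba6* and 12.0 FPKM in sgCtrl cells (-0.76), *Tfdp1*, the main dimer partner of E2F factors, 114 FPKM in sg*Uba6* and 152 FPKM in sgCtrl cells (-0.42), and *E2f4* 51.4 FPKM in sg*Uba6* and 66.8 FPKM in sgCtrl cells (-0.38). *E2f6*, a repressive family member, rose (0.24), a call lost under quantile normalization and without sgCtrl 2, sgCtrl 3, sg*Uba6* 1 or sg*Uba6* 2 (adjusted p between 0.0554 and 0.0713). E2F4 and E2F5 are the factors that pair with the pocket proteins in resting cells.

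Of 30 known E2F target genes of the G1/S transition, 21 fell, 9 did not pass and 0 rose by limma. The share that fell was 70.0%, beside 22.7% of all tested genes, and the median of the 30 genes was -0.35. Their summed level was 1352 to 1435 FPKM in sg*Uba6* and 1798 to 1858 FPKM in sgCtrl libraries. *Ccna2*, the cyclin that follows cyclin E on CDK2, was at 74.2, 85.6 and 75.5 FPKM in sg*Uba6* cells, against 157, 180.4 and 162 FPKM in sgCtrl cells, a log2 fold change of -1.08 (SE 0.07, limma, adjusted p = 6.00e-05). *Tyms*, which makes thymidylate, fell with a log2 fold change of -0.80, and *Fen1*, the flap endonuclease, with one of -0.93. The groups of *Fen1* overlapped, and its call was lost without sgCtrl 2, sgCtrl 3, sg*Uba6* 2 or sg*Uba6* 3 and under the replicate block (adjusted p between 0.0803 and 0.0887 in these fits). *Ccne1* and *Ccne2*, themselves classical E2F targets, were not counted in this list.

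Genes for the turnover of cyclins D and E and of p27 numbered 19, of which 5 rose, 5 fell and 9 did not pass, with a median of -0.13. The share called, 52.6%, was close to the 47.4% of all tested genes. *Ambra1*, the substrate receptor for D-type cyclins, rose (0.54), as did its ligase subunit *Ddb1* (0.20) and the deubiquitinase gene *Usp22* (0.61). *Cks1b*, the cofactor with which SKP2 recognises p27, fell (-0.54), as did *Cul4b* (-0.44) and *Ubac1* (-0.30), which codes for a subunit of a p27 ligase. Of 7 genes for the CDK-activating kinase and for the phosphates on CDKs, 2 rose (*Wee1* 0.27, *Mnat1* 0.22), 1 fell (*Cdc25c* -0.20) and 4 did not pass, so that 42.9% were called. The *Mnat1* call was lost without sgCtrl 3 or sg*Uba6* 3 and under the replicate block (adjusted p up to 0.0597). The *Cdc25c* call was lost under 9 of 14 alternatives, among them leaving out sgCtrl 2, sgCtrl 3 or any sg*Uba6* library (adjusted p up to 0.110).

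The 18 tested genes for mitogen inputs to D-type cyclins held 9 that rose, 5 that fell and 4 that did not pass, with a median of 0.23, and 77.8% were called, beside 47.4% of all tested genes. The immediate early genes *Junb* (289 FPKM in sg*Uba6* and 136 FPKM in sgCtrl cells, log2 fold change 1.09), *Fos* (0.88) and *Egr1* (0.70) rose. *Nfkb1* (46.7 FPKM in sg*Uba6* and 85.3 FPKM in sgCtrl cells, -0.86), *Fosl1* (-0.64) and *Fosl2* (-0.52) fell. The members of the AP-1 family thus moved in both directions. *Myc*, singled out after its values were seen because MYC binds the E-box, was at 80.6, 82.2 and 76.5 FPKM in sg*Uba6* cells, against 93.7, 99.99 and 95.8 FPKM in sgCtrl cells (log2 fold change -0.27, limma, adjusted p = 0.00217), with no overlap.

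Of 11 proliferation markers 72.7% were called, with 2 higher (*Ccnb2* 0.24, *Foxm1* 0.11), 6 lower (among them *Plk1* -0.29, *Birc5* -0.27 and *Aurka* -0.21), 3 not passed and a median of -0.10. The *Foxm1* call was lost under 9 of 14 alternatives, leaving out any of the 6 libraries included (adjusted p up to 0.108). Of 7 tested genes linked to quiescence and senescence, 4 rose (among them *Btg2* 0.55, *Tob1* 0.49 and *Klf4* 0.36), 1 fell (*Lmnb1*, -0.46) and 2 did not pass (71.4% called), with a median of 0.27. The *Btg2* call was lost under quantile normalization (limma, adjusted p = 0.0654). These counts describe lists chosen with earlier results of these data known and were given no test of their own. Growth was not measured in these data. The paper reports that the knockout cells of this line had no growth disadvantage in culture, by a cell viability assay. In immunodeficient NSG mice it reports modestly smaller tumours from these cells and a limited gain in survival. Whether the mRNA differences of the E2F targets, of *Cdkn1a* and of these markers go with a change in growth was not tested.

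**Figure D4:**
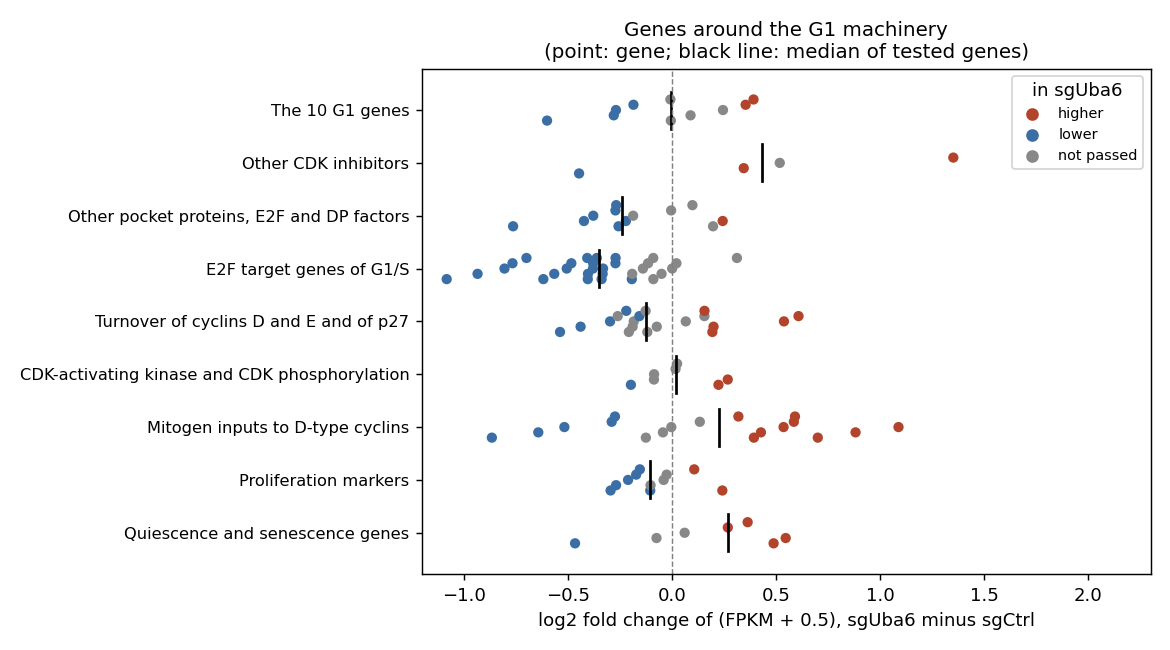
Log2 fold change of (FPKM + 0.5), sgUba6 minus sgCtrl, of the 10 G1 genes and of the tested genes of 8 lists around them (points, coloured by limma call), with the median of each list as a black line. The medians ran between -0.35 for the E2F targets and 0.43 for the other CDK inhibitors, while that of the 10 G1 genes was -0.01.

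**Figure D5:**
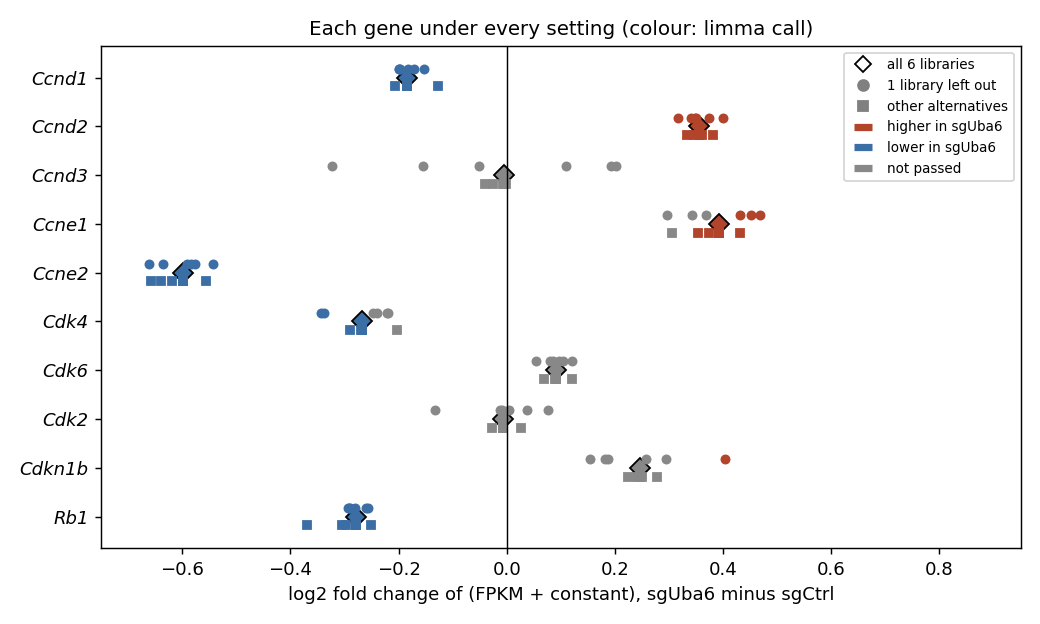
Log2 fold change of each of the 10 genes, sgUba6 minus sgCtrl, with all 6 libraries (diamonds), with 1 library left out (circles) and under the other alternatives (squares), coloured by limma call. Ccnd1, Ccnd2, Ccne2 and Rb1 kept their colour throughout, Ccne1 lost its call under 4 and Cdk4 under 7 of 14 alternatives, and Cdkn1b gained a call without sgCtrl 1.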

How the data were processed

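Deposited FPKM per gene and library, made by the authors, were used. The study's methods describe a directional kit, Cutadapt 1.9.1, HISAT2 2.1.0 on GRCm38, StringTie 1.3.3 and Cuffdiff 1.3.0. The submitters' notes name TruSeq libraries, CASAVA 1.8, Trimmomatic, HISAT2 and RSEM. Which of them made the FPKM, and whether strand was used, was not given in the sources used here. Columns with the authors' own comparison (fold change, p and q) were left out. A gene was tested if it reached 0.5 FPKM in 3 or more libraries (12190 of 19255). The groups were compared on log2(FPKM + 0.5) by limma 3.58.1 (trended eBayes, R 4.3.3), p-values were adjusted by Benjamini-Hochberg over the tested genes, and the threshold was 0.05. Shares within libraries were compared by exact permutation tests. The fit was tested on simulated data. The members and lists were chosen with earlier results of these data known. A gene of the quiescence and senescence list is not reported here and was left out of its counts. Named were all 10 genes, *Uba6*, up to 3 called genes in each direction with the largest change of each list, and the 3 genes most like the most raised and the most lowered member. *Myc* was named outside this rule. Annotation was GENCODE M21, in which all 19255 identifiers matched. Shared sequence was sought with blastn 2.17.0 (at least 200 bases at 95% identity). Alternatives were a constant of 0.1 or 1, no filter or a 1 FPKM filter, scaling by median of ratios or by quantiles, no trend, a replicate block and leaving out each library. Figures were drawn with matplotlib 3.10.9.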

Additional observations from a re-analysis of the deposited data

How the results depend on the processing

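*Ccnd1*, *Ccnd2*, *Ccne2* and *Rb1* kept their calls under all 14 alternatives. Of the 10 genes, 2 were called higher with all libraries, 1 under quantile normalization and 1 to 2 when a library was left out. Without sgCtrl 1 the 2 were *Ccnd2* and *Cdkn1b*, since *Ccne1* lost its call. With all libraries 4 were called lower. This became 3 with no filter, with no trend and under quantile normalization, and 3 to 4 when a library was left out. *Ccnd3*, not called under any alternative, had log2 fold changes between -0.32 and 0.20 when a library was left out (0.20 without sgCtrl 1, 0.11 without sgCtrl 2, 0.19 without sg*Uba6* 1). *Cdk2*, also never called, turned to 0.027 under quantile normalization and lay between -0.13 and 0.076 when a library was left out (0.076 without sgCtrl 2, 0.038 without sgCtrl 3, 0.00363 without sg*Uba6* 2). The difference in the *Ccnd3* share of D-type cyclin FPKM lay between -0.467 (without sgCtrl 3) and 0.709 percentage points and was -0.107 without sg*Uba6* 2. The causes were not tested. Replicate numbers did not pair the samples (correlations of 0.0156, -0.0567 and -0.0222 for numbers 1, 2 and 3), and with the replicate block 2718 genes were higher and 2552 lower, against 3014 and 2769 without it, and the calls of the 10 genes were the same. Of the genes named from the lists, *Fen1*, *Mnat1*, *Cdc25c* and *Foxm1* lost their calls under the block. With 3 libraries a group, no exact two-sided permutation test can go below 0.1.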
